A study of Mus musculus with 8 samples.

Results

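The 34 genes described here are established markers of liver endothelial cells, chosen by name: 13 junction and surface genes, 5 growth factor receptors, 9 scavenger and sinusoidal genes, 5 secreted ligands and 2 transcription factors. All 34 had a probe set with a single gene symbol and a signal above the filter, and they were measured among 14432 genes tested. The data are 8 Affymetrix mouse arrays of whole liver RNA from male C57BL/6 mice aged 7 to 10 weeks. Wild type mice and mice of a Tob1 null line on the C57BL/6 background were sampled as normal adults (0 h) and 24 h after a partial hepatectomy, in which the median and left lateral lobes are ligated. Each of the 4 groups (wild type 0 h, wild type 24 h, null 0 h, null 24 h) had 2 arrays, and each array carried RNA pooled from 3 different animals, so every error below is a spread between pools. No sham-operated group was analysed here, so surgery and anaesthesia cannot be told apart from loss of liver mass at 24 h, and in whole tissue fewer endothelial cells cannot be told apart from less RNA per cell. The series title names Tob1, an antiproliferative protein of the BTG/TOB family, as restraining liver regeneration. The comparisons ask how these genes stood 24 h after hepatectomy and how that differed in the null line.

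Endothelial cells line the liver's vessels and its sinusoids, the fenestrated capillaries between plates of hepatocytes. Sinusoidal endothelial cells clear waste molecules from blood through scavenger receptors, and endothelial cells of the central vein and sinusoids secrete Wnt proteins, R-spondin and BMPs that set hepatocyte zonation and iron sensing. After partial hepatectomy hepatocytes enter the cell cycle first and endothelial cells divide later, while VEGF and angiopoietin receptors on the endothelium are known to take part in regrowth.

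Many endothelial genes are known to be driven by transcription factors of the ETS family, to which Erg belongs, and short DNA stretches are shown here for genes whose values are described below. RefSeq promoter sequences (build GRCm38.p6) matched 18 of the 34 genes, with 22 promoters. The ETS cores AGGAAG and CGGAAG, the GATA site AGATAA and the SOX core ACAAAG were searched on both strands of the 250 bases before each start. AGGAAG occurred in 12 of the 22 promoters (54.5%), from 11 genes, and in 29.5% of all 32851 promoters of the same length. CGGAAG occurred in 2 of the 22 and in 13.6% of all, AGATAA in 1 and in 9.99%, and ACAAAG in 3 and in 16.5%. These matches describe letters only. The sites of 4 genes follow, each written 5′ to 3′ on the gene's strand with 12 bases on either side. Capitals mark AGGAAG, or CTTCCT where it lies on the opposite strand. They stand 129 and 53 (Flt1), 49 (Robo4), 40 (Stab2) and 40 (Erg) bases before the listed start, and all lie inside the gene's outermost RefSeq span, which begins further upstream.
Flt1, chr5:147726123-147726152, minus strand: cgcccctccgggAGGAAGaagagggtaggt
Flt1, chr5:147726047-147726076, minus strand: aggtgccggggtAGGAAGtgggctggggaa
Robo4, chr9:37401911-37401940, plus strand: tgagggccaggcAGGAAGcatccgtttcct
Stab2, chr10:87007965-87007994, minus strand: cacctactttccCTTCCTaaccagggaaag
Erg, chr16:95459371-95459400, minus strand: caatagaaacctCTTCCTgccattggctga

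Some facts of the whole series bear on these genes. The brighter Tob1 probe set did not mark the null label: it read 0.57 ± 0.15 higher (log2 ± SE) in the null-labelled arrays at 0 h and 0.59 ± 0.15 higher at 24 h, with limma adjusted p of 0.40 and 0.27, and the labels do not say whether it lies in the deleted part. The groups are therefore called null-labelled. Array 1 of wild type 24 h stood apart. It held the lowest of the 8 values in 13 of the 34 endothelial genes (38.2%), against 17.0% of all genes tested, and in 9 of 14 Kupffer cell markers. Array 1 of null-labelled 0 h held the lowest value in 10 of the 34 (29.4%), against 14.4% of all genes tested, and in 0 of 14 Kupffer cell markers. On the linear scale the signals of the 34 endothelial genes summed to 4540 to 4780 in wild type 0 h, 3529 (array 1) and 4498 (array 2) in wild type 24 h, 3526 to 4016 in null-labelled 0 h and 4213 to 4426 in null-labelled 24 h. The 14 Kupffer cell markers summed to 3090 in array 1 of wild type 24 h, 3888 in array 2 and 4355 to 4587 in the other 6 arrays. Of the 3 smooth muscle and mesothelial markers tested, Tagln read 8.52 on the log2 scale in array 1 of wild type 24 h and 4.51 to 6.99 elsewhere, while Msln was lowest in that array, at 2.76, and Upk3b lay within the range of the others, at 3.60. Sums over 9 hepatocyte markers stayed between 66920 and 71790 in all arrays. Quantile normalisation gave every array the same set of values, so a sum dominated by very bright genes could move little. It cannot show whether the hepatocyte share was stable. In the 24 h response averaged over genotypes, 1 of the 9 rose (Fgb) and 3 fell (Cps1, Hnf4a and Cebpa). These passed at a limma adjusted p under 0.05, against 13.8% of all genes that rose and 15.0% that fell. As a measure of RNA quality, the 3′ to 5′ signal ratio of actin peaked in null-labelled 0 h, at 1.57 ± 0.03 on the log2 scale (SD, n = 2), against 1.22 ± 0.25, 0.97 ± 0.09 and 1.27 ± 0.07 in wild type 0 h, wild type 24 h and null-labelled 24 h.

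**Figure D1:**
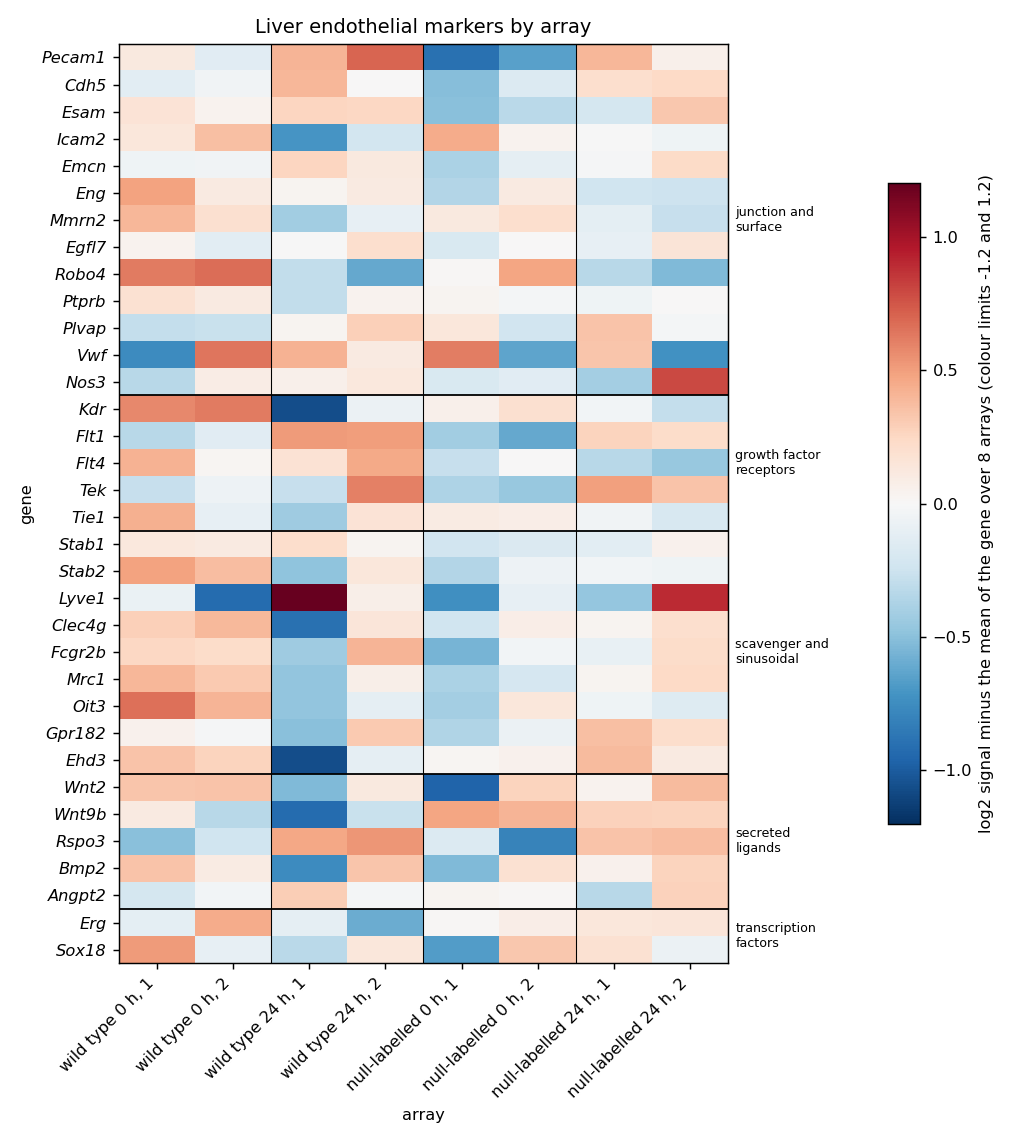
Log2 signal of the 34 endothelial genes (rows, by role) in the 8 arrays (columns), minus the mean of each gene over the arrays; red is above the mean and blue below. Array 1 of wild type 24 h is the lowest array for 13 genes (38.2%, against 17.0% of all genes tested). Array 1 of null-labelled 0 h is the lowest for 10 (29.4%, against 14.4%).

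The endothelial genes spread over the 8 arrays about as widely as other genes. The distance between the highest and lowest array had a median of 1.05 log2 units over the 34 genes and 0.93 over all genes tested. By the brightest probe set of each gene, Egfl7, a secreted angiogenic factor, varied least, at 0.39, followed by the scavenger receptor Stab1 at 0.44. The hyaluronan receptor Lyve1 varied most, at 2.26, followed by the VEGF receptor Kdr at 1.69 and the junction protein Pecam1 at 1.60. Dimmer probe sets of Egfl7 above the filter varied more, such as from 3.83 to 5.24 and from 5.68 to 6.90. Replicate arrays of wild type 24 h differed by a median of 0.39 in size over the 34 genes and by 0.22 over all genes.

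At 24 h some endothelial genes rose and others fell. In the response averaged over both genotypes, 3 genes rose (Flt1, Rspo3 and Pecam1) and 2 fell (Robo4 and Mmrn2), at a limma adjusted p under 0.05 over all genes tested. These are 5 of 34 (14.7%), against 28.8% of all 14432 genes, of which 1987 rose and 2170 fell (2212 and 1326 with median centring of the arrays). The median averaged response was -0.01 over the 34 genes and -0.04 over all genes, and 17 genes lay on either side of 0. Taken by genotype, 2 of 34 (5.88%) passed in wild type, Flt1 upward and Robo4 downward, against 9.19% of all genes. In null-labelled liver Flt1 and Pecam1 rose, again 2 of 34 (5.88%), against 14.7% of all genes (1075 up and 1044 down, or 1243 and 467 with median centring). The median response was -0.24 in wild type and 0.20 in null-labelled liver, against -0.03 and -0.04 over all genes. Without array 1 of wild type 24 h the wild type median was 0.04, and without array 1 of null-labelled 0 h the null-labelled median was 0.05, with 20 of 34 genes above 0. In 10 genes (29.4%) the arrays of the times did not overlap in either genotype and moved the same way, against 39.4% of all genes: Pecam1, Cdh5, Esam, Emcn, Flt1 and Rspo3 were higher at 24 h, and Icam2, Mmrn2, Robo4 and Kdr lower.

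**Figure D2:**
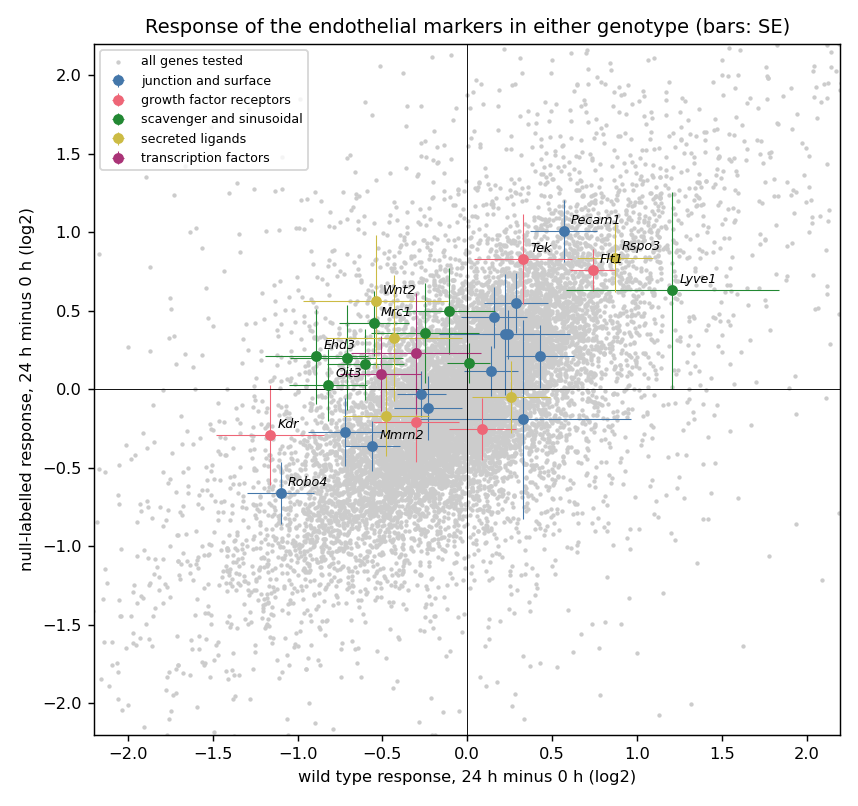
Response to hepatectomy (24 h minus 0 h, log2) in wild type (x axis) and null-labelled liver (y axis) for all genes tested (grey, points beyond 2.2 not shown) and the 34 endothelial genes (coloured by role, bars are SE). Flt1, Pecam1 and Rspo3 lie in the upper right, Robo4 in the lower left. All 9 scavenger and sinusoidal genes lie above 0 on the y axis and 7 of them left of 0 on the x axis.

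Of the 13 junction and surface genes, Pecam1 rose and Robo4 and Mmrn2 fell. Pecam1, an adhesion molecule at endothelial contacts, read 4.68 and 4.42 in wild type 0 h and 4.97 and 5.26 in wild type 24 h on the log2 scale. In null-labelled liver it read 3.66 and 3.91 at 0 h and 4.96 and 4.62 at 24 h. The times did not overlap in either genotype, and both null-labelled arrays at 0 h lay below the other 6. The averaged response was 0.79 ± 0.14 (log2 ± SE, limma adjusted p = 0.0122), a 1.73-fold rise, with 1.01 ± 0.20 in null-labelled liver (limma adjusted p = 0.029) and 0.57 ± 0.20 in wild type, which did not pass (limma adjusted p = 0.123). Among the 8 fits that left out 1 array, the null-labelled call held only in those without array 1 or array 2 of wild type 24 h. Robo4, a receptor that steadies the vessel wall, read 5.54 and 5.59 in wild type 0 h, 4.62 and 4.31 in wild type 24 h, 4.93 and 5.39 in null-labelled 0 h and 4.59 and 4.39 in null-labelled 24 h. All 4 arrays at 24 h lay below all 4 at 0 h. Its averaged response was -0.88 ± 0.14 (limma adjusted p = 0.0092), a 1.84-fold fall, with -1.10 ± 0.20 in wild type (limma adjusted p = 0.0302) and -0.66 ± 0.20 in null-labelled liver (limma adjusted p = 0.0742). The wild type call was lost without any 1 array of wild type or of null-labelled 0 h, and the averaged call held in all 8 such fits.

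Mmrn2, a matrix glycoprotein of vessels, read 6.65 and 6.44 in wild type 0 h, 5.83 and 6.15 in wild type 24 h, 6.37 and 6.45 in null-labelled 0 h and 6.13 and 5.97 in null-labelled 24 h. Again every array at 24 h lay below every array at 0 h, but the distance was smaller, with an averaged response of -0.46 ± 0.11 (limma adjusted p = 0.0315). This call was lost in 6 of the 8 fits that left out 1 array and in 5 of 9 other settings, and among its 4 probe sets the averaged response ran from -0.46 to -0.10. Cdh5, the cadherin of endothelial junctions, read 6.93 and 7.02 in wild type 0 h, 7.46 and 7.07 in wild type 24 h, 6.55 and 6.90 in null-labelled 0 h and 7.26 and 7.30 in null-labelled 24 h. Its averaged response of 0.42 ± 0.13 did not pass (limma adjusted p = 0.0616), although the times did not overlap in either genotype. Its second, dimmer probe set above the filter moved the other way, with an averaged response of -0.69 and no overlap in either genotype. By their brightest probe sets, the other 9 junction and surface genes (Esam, Icam2, Emcn, Eng, Egfl7, Ptprb, Plvap, Vwf and Nos3) had averaged responses between -0.49 and 0.32. None passed. A dimmer Egfl7 probe set above the filter had an averaged response of -0.65. Vwf, carried in endothelial storage granules, lay below the filter limit in 2 arrays.

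**Figure D3:**
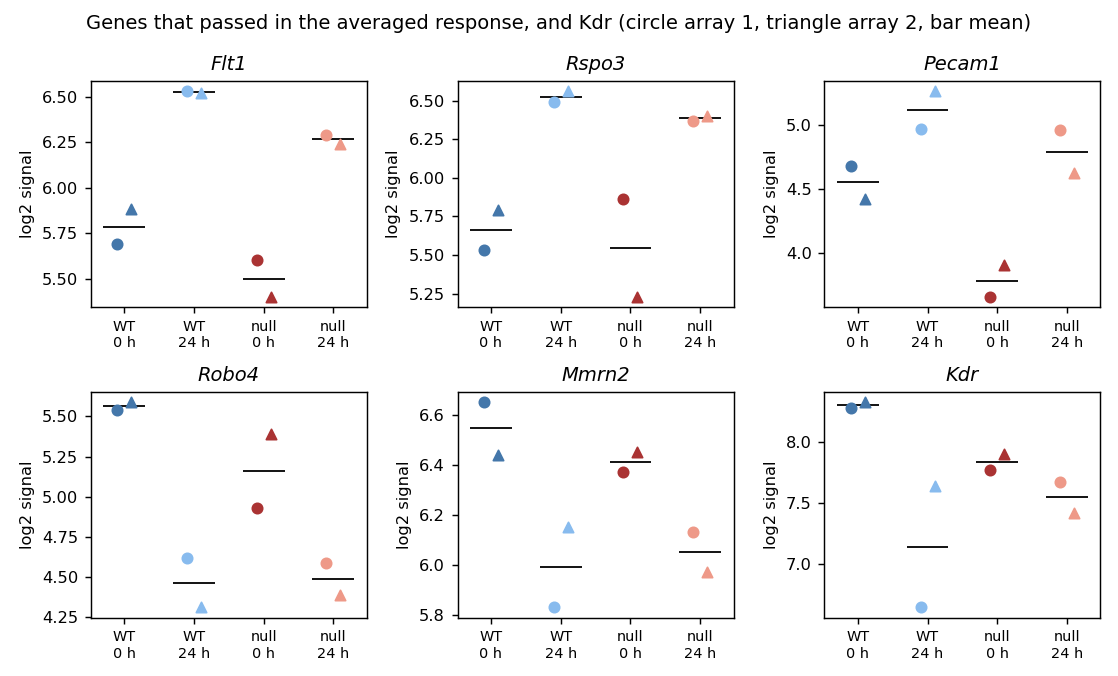
Log2 signal per array of Flt1, Rspo3, Pecam1, Robo4 and Mmrn2, which passed in the averaged response, and of Kdr, which did not. Circles are array 1 and triangles array 2 of each group, bars the mean of 2 arrays, and each panel has its own axis. In the first 3 panels both arrays at 24 h lie above both at 0 h in either genotype, and in the last 3 below.

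Among the 5 growth factor receptors Flt1 rose and the other 4 did not pass. Flt1, the receptor that binds VEGF tightly and signals weakly, read 5.69 and 5.88 in wild type 0 h, 6.53 and 6.52 in wild type 24 h, 5.60 and 5.40 in null-labelled 0 h and 6.29 and 6.24 in null-labelled 24 h. All arrays at 24 h lay above all arrays at 0 h. The response was 0.74 ± 0.13 in wild type (limma adjusted p = 0.030), 0.76 ± 0.13 in null-labelled liver (limma adjusted p = 0.0233) and 0.75 ± 0.09 averaged (limma adjusted p = 0.00495), a 1.68-fold rise. The averaged call held without any 1 array, while the wild type call was lost without any 1 array of wild type or of null-labelled 0 h and the null-labelled call without any 1 array of null-labelled liver. The value rested on the brightest of 3 probe sets above the filter, whose averaged responses were 0.75, 0.50 and 0.06. With the mean of all probe sets the averaged response was 0.44 (limma adjusted p = 0.054).

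Kdr, the main signalling receptor for VEGF, read 8.28 and 8.33 in wild type 0 h, 6.64 and 7.64 in wild type 24 h, 7.77 and 7.90 in null-labelled 0 h and 7.67 and 7.42 in null-labelled 24 h. It was lower at 24 h without overlap in either genotype. The wild type response of -1.16 ± 0.32 (limma adjusted p = 0.0735) and the averaged response of -0.73 ± 0.23 (limma adjusted p = 0.0575) did not pass, and the lowest value was that of array 1 of wild type 24 h. Tek, the angiopoietin receptor, had an averaged response of 0.58 ± 0.20 (limma adjusted p = 0.0797), with 0.33 ± 0.29 in wild type and 0.83 ± 0.29 in null-labelled liver. Flt4, the receptor for lymphatic VEGF ligands, and the orphan receptor Tie1 had averaged responses of -0.08 ± 0.14 and -0.25 ± 0.18.

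None of the 9 scavenger and sinusoidal genes passed in limma in any of the 6 comparisons. In the wild type response 4 of them (Stab2, Mrc1, Oit3 and Ehd3, all lower) had an unadjusted p under 0.05, against 29.9% of all genes, and 0 had one in the averaged response, against 42.5%. In wild type the median response was -0.55 with 7 of 9 genes below 0, and in null-labelled liver it was 0.21 with all 9 above 0. Without array 1 of null-labelled 0 h the null-labelled median was 0.14, with 8 of 9 above 0. Without array 1 or without array 2 of null-labelled 24 h, 8 of 9 were above 0. Dimmer Fcgr2b probe sets above the filter had null-labelled responses of -0.07, -0.52, 0.17 and 0.39. Stab2, a scavenger receptor for hyaluronan, read 7.67 and 7.55 in wild type 0 h, 6.70 and 7.32 in wild type 24 h, 6.83 and 7.12 in null-labelled 0 h and 7.15 and 7.13 in null-labelled 24 h. Wild type 0 h lay above all other arrays. Mrc1, the mannose receptor, which macrophages also express, read 7.70 and 7.61 in wild type 0 h, 6.83 and 7.37 in wild type 24 h, 6.92 and 7.10 in null-labelled 0 h and 7.33 and 7.54 in null-labelled 24 h. Ehd3, an endocytic trafficking protein, read 8.94 and 8.87, 7.54 and 8.49, 8.62 and 8.65, and 8.98 and 8.71 in the same order of groups. These 3 genes were lower at 24 h in wild type and higher at 24 h in null-labelled liver without overlap in either. That is 3 of 34 (8.82%), against 2.29% of all genes, while the reverse pattern was seen in 0 of 34, against 2.15%. In null-labelled liver none of the 3 passed (limma adjusted p of 0.651 for Stab2, 0.208 for Mrc1 and 0.667 for Ehd3). The nearest Stab2 arrays there read 7.125 at 0 h and 7.133 at 24 h. A second, dimmer Ehd3 probe set above the filter overlapped there. It read 7.143 and 7.084 at 0 h and 7.425 and 6.784 at 24 h.

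Clec4g, a C-type lectin of sinusoidal endothelium, read 8.99 and 9.09 in wild type 0 h, 7.81 and 8.85 in wild type 24 h, 8.46 and 8.78 in null-labelled 0 h and 8.73 and 8.90 in null-labelled 24 h. Oit3 read 7.20 and 6.94, 6.06 and 6.43, 6.13 and 6.67, and 6.48 and 6.38 in that order. For both, wild type 0 h was the highest group and array 1 of wild type 24 h the lowest array. Lyve1 went another way, with 6.84 and 6.00, then 8.26 and 6.99, then 6.19 and 6.82, then 6.46 and 7.82, and its averaged response of 0.92 ± 0.44 did not pass (limma adjusted p = 0.169). Its highest value came from array 1 of wild type 24 h, where the smooth muscle gene Tagln was also highest, the mesothelial gene Msln lowest, and 6 of these 9 genes lowest; the part of that array's makeup in these values was not tested. Without that array the median of the 9 genes was -0.19 in the wild type response, with 6 of 9 below 0.

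**Figure D4:**
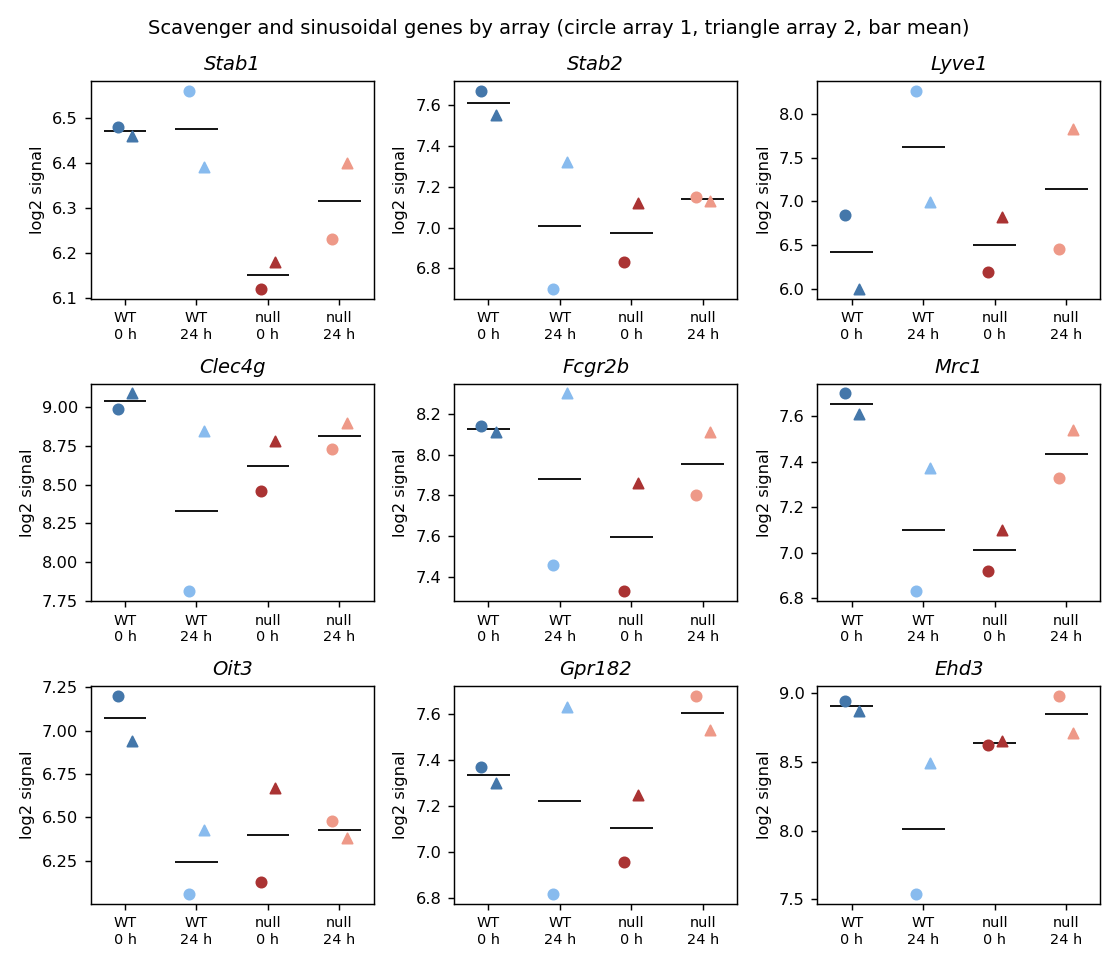
Log2 signal per array of the 9 scavenger and sinusoidal genes in the 4 groups. Circles are array 1 and triangles array 2, bars the mean of 2 arrays, and each panel has its own axis. Array 1 of wild type 24 h (circle) is the lowest array for Stab2, Clec4g, Mrc1, Oit3, Gpr182 and Ehd3 and the highest for Stab1 and Lyve1.

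Among the 5 secreted ligands only Rspo3 passed, and only in the averaged response. Rspo3, which amplifies Wnt signals to hepatocytes near the central vein, read 5.53 and 5.79 in wild type 0 h, 6.49 and 6.56 in wild type 24 h, 5.86 and 5.23 in null-labelled 0 h and 6.37 and 6.40 in null-labelled 24 h. Every array at 24 h lay above every array at 0 h. The averaged response was 0.85 ± 0.16 (limma adjusted p = 0.0132), a 1.81-fold rise, with 0.87 ± 0.22 in wild type (limma adjusted p = 0.0639) and 0.84 ± 0.22 in null-labelled liver (limma adjusted p = 0.056). Its second, dimmer probe set had an averaged response of -0.60, and the mean of both gave 0.13 (limma adjusted p = 0.734).

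Wnt2, a Wnt ligand of sinusoidal endothelium, read 5.87 and 5.88 in wild type 0 h, 5.01 and 5.66 in wild type 24 h, 4.58 and 5.81 in null-labelled 0 h and 5.58 and 5.92 in null-labelled 24 h. Its response was -0.54 ± 0.43 in wild type and 0.56 ± 0.43 in null-labelled liver. Bmp2, a ligand that drives hepcidin in hepatocytes, had responses of -0.43 ± 0.40 and 0.33 ± 0.40. Wnt9b, a ligand of central vein endothelium, had an averaged response of -0.32 ± 0.18. It lay below the filter limit in 3 of the 8 arrays, namely array 2 of wild type 0 h and both of wild type 24 h. Angpt2, the angiopoietin that antagonises Tek signalling in many settings, had an averaged response of 0.10 ± 0.16. None of these 4 genes passed in limma in any comparison. The transcription factors Erg and Sox18 had averaged responses of -0.21 ± 0.17 and -0.03 ± 0.27.

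Before surgery most endothelial genes read lower in the null-labelled arrays, without any passing alone. At 0 h 29 of the 34 genes were below 0 in null-labelled minus wild type, with a median of -0.26, against 0.01 over all genes. In 20 of 34 (58.8%) both null-labelled arrays lay below both wild type arrays, against 23.9% of all genes. In 3 genes (Plvap, Wnt9b and Angpt2) both lay above, a pattern of 24.3% of all genes. Of these, Wnt9b lay below the filter limit of 3.60 in array 2 of wild type 0 h, at 3.38. No endothelial gene, and none of all genes tested (0.0%), passed in limma at 0 h, while 6 of 34 had an unadjusted p under 0.05, all lower, against 4.75% of all genes in that direction. Pecam1 differed by -0.76 ± 0.20 (limma adjusted p = 0.405), Mrc1 by -0.64 ± 0.21 (limma adjusted p = 0.461), Oit3 by -0.67 ± 0.23 (limma adjusted p = 0.49) and Stab2 by -0.63 ± 0.23 (limma adjusted p = 0.51). The other 2 were Esam, at -0.51 ± 0.19, and Stab1, at -0.32 ± 0.13. The null-labelled values of Pecam1, 3.66 and 3.91, lay near the filter limit of 3.60. The median was -0.19 without array 1 and -0.34 without array 2 of null-labelled 0 h, with 28 of 34 genes below 0 either way. Of 37 other endothelial genes tested, 25 were below 0, with a median of -0.25, as were 9 of 14 Kupffer cell markers, with a median of -0.24, 10 of 14 stellate cell and fibroblast markers, with a median of -0.12, 4 of 4 cholangiocyte markers, with a median of -0.46, and 2 of 9 hepatocyte markers. The 3′ to 5′ ratios of actin and Gapdh were highest in these same arrays, and their part in the difference was not tested.

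At 24 h the endothelial genes lay about evenly around 0 between genotypes. The median of null-labelled minus wild type was 0.07, with 22 of 34 genes above 0, and -0.08, with 10 above 0, without array 1 of wild type 24 h. In 9 of 34 genes (26.5%) the genotypes did not overlap, against 40.7% of all genes. Icam2, Ehd3, Wnt9b and Erg were higher in null-labelled liver, and Pecam1, Eng, Flt1, Flt4 and Rspo3 lower. These directions are of the brightest probe sets. The dimmer probe sets of Ehd3, Eng, Flt4 and Rspo3 above the filter overlapped between genotypes. The dimmest of Flt1 above the filter was higher in null-labelled liver, at 4.39 and 4.55, against 4.27 and 4.38 in wild type. No endothelial gene passed in limma, against 0.00693% of all genes (1 gene). The 3 with an unadjusted p under 0.05 (11.8% of all genes had one) were Flt4, at -0.70 ± 0.20 (limma adjusted p = 0.302), Wnt9b, at 0.87 ± 0.25 (limma adjusted p = 0.313), and Ehd3, at 0.83 ± 0.30 (limma adjusted p = 0.38). For Wnt9b both wild type 24 h arrays, at 2.79 and 3.45, lay below the filter limit of 3.60.

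**Figure D5:**
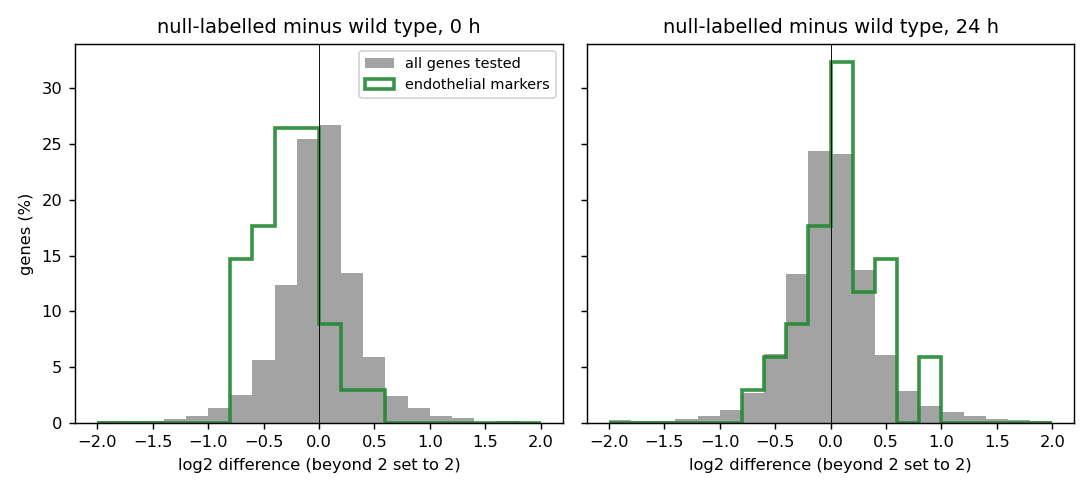
Share of genes (%) by null-labelled minus wild type difference (log2, steps of 0.2) at 0 h and 24 h, for the 34 endothelial genes (green line) and all genes tested (grey). At 0 h the endothelial genes lie to the left, with a median of -0.26, and at 24 h around 0, with a median of 0.07.

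The difference between the responses was above 0 in 27 of 34 genes, with a median of 0.31, against 0.00 over all genes. Without array 1 of wild type 24 h it was 0.20, with 26 of 34 above 0. The comparison shares its arrays with the comparisons at 0 h and 24 h and is not a separate observation. No gene passed in limma, endothelial or other (0.0%), and 3 of 34 had an unadjusted p under 0.05, all upward, against 4.57% of all genes. They were Mrc1, at 0.97 ± 0.29 (limma adjusted p = 0.544), Oit3, at 0.85 ± 0.33 (limma adjusted p = 0.572), and Ehd3, at 1.10 ± 0.43 (limma adjusted p = 0.573). The scavenger and sinusoidal genes had a median of 0.76, with 8 of 9 above 0, and 0.39, with 9 of 9 above 0, without array 1 of wild type 24 h. The growth factor receptors had a median of 0.09, the junction and surface genes 0.20, the 5 secreted ligands 0.31 and the 2 transcription factors 0.57. The 14 Kupffer cell markers, none of them among the 34 genes, had a median of 0.51, with 13 of 14 above 0, and the part of macrophage RNA in the endothelial values was not tested.

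Of 10 ligands and coreceptors of the VEGF and angiopoietin pathways tested, 0 rose and 2 fell in the averaged response, against 13.8% of all genes that rose and 15.0% that fell. Vegfb, a ligand of Flt1, read 5.21 and 5.65 in wild type 0 h, 3.77 and 3.67 in wild type 24 h, 5.83 and 5.87 in null-labelled 0 h and 5.02 and 4.83 in null-labelled 24 h. The groups did not overlap within either genotype, and the averaged response was -1.32 ± 0.12 (limma adjusted p = 0.00308). Nrp1, a coreceptor for VEGF, fell by 0.50 ± 0.10 (limma adjusted p = 0.0185), with -0.83 ± 0.15 in null-labelled liver (limma adjusted p = 0.0236) and -0.16 ± 0.15 in wild type (limma adjusted p = 0.495). The difference between these responses did not pass (limma adjusted p = 0.556). Vegfa, the main ligand of Kdr, had responses of 0.06 in wild type and -0.59 in null-labelled liver and did not pass. Of 10 genes of endothelial Notch signalling tested, 0 rose and 2 fell, near the 15.0% of all genes that fell: the target gene Heyl by 1.28 ± 0.21 (limma adjusted p = 0.0099), and the receptor Notch1 by 0.57 ± 0.12 (limma adjusted p = 0.0204).

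Hepatocyte genes known to depend on endothelial Wnt ligands and Rspo3 were given beside the ligands. Of 13 tested, 0 rose and 3 fell in the averaged response, against 13.8% and 15.0% of all genes. Those that fell were the ammonium transporter Rhbg by 1.14 ± 0.13 (limma adjusted p = 0.00377), and the cytochromes Cyp1a2 by 1.12 ± 0.13 (limma adjusted p = 0.0040) and Cyp2e1 by 0.29 ± 0.08 (limma adjusted p = 0.0498). Glutamine synthetase (Glul) had an averaged response of -0.56 ± 0.22, Axin2, a general target of Wnt signalling, -0.08 ± 0.19, and the R-spondin receptor Lgr5 -0.43 ± 0.36, and none of these passed. Among 9 genes of BMP signalling, Bmper, a secreted BMP regulator, read 3.01 and 3.03 in wild type 0 h, 7.86 and 5.77 in wild type 24 h, 3.33 and 3.11 in null-labelled 0 h and 4.98 and 6.08 in null-labelled 24 h. All 4 arrays at 0 h lay below the filter limit of 3.60, so Bmper entered the test only through its signal at 24 h and its difference is given as these values alone. None of the other 8 genes passed in limma in the averaged response, and 0 had an unadjusted p under 0.05. Hepcidin (Hamp), the iron hormone induced by Bmp2, had an averaged response of 0.20 ± 0.32 and did not pass.

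Of 37 other endothelial genes tested, 7 rose and 2 fell in the averaged response, against 13.8% and 15.0% of all genes. Thrombomodulin (Thbd), the anticoagulant receptor of the vessel wall, rose by 2.88 ± 0.28 (limma adjusted p = 0.00308), from 4.22 and 4.74 to 7.69 and 7.67 in wild type and from 5.19 and 4.88 to 7.01 and 8.18 in null-labelled liver. Ecscr, a surface protein of endothelial migration, rose by 1.47 ± 0.13 (limma adjusted p = 0.00297), from 4.40 and 4.79 to 5.82 and 5.99 in wild type and from 4.27 and 4.32 to 5.76 and 6.09 in null-labelled liver. In both genes the arrays of the times were apart by more than any replicates differed. Cyyr1 rose by 0.86 ± 0.08 (limma adjusted p = 0.00308) and the ETS factor Fli1 by 0.61 ± 0.10 (limma adjusted p = 0.0088). Fli1 passed in null-labelled liver (limma adjusted p = 0.0145) and not in wild type, where its response was 0.22 ± 0.14 (limma adjusted p = 0.329). The difference between these responses, 0.78, did not pass (limma adjusted p = 0.529). The other 3 that rose were Rhoj, Vcam1 and Icam1, and the 2 that fell were Tal1 and Dnase1l3, named here after their values were seen. The list's median averaged response was 0.21, against -0.04 over all genes.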

How the data were processed

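Expression was measured on 8 arrays, 2 for each of 4 groups, with 3 animals pooled per array. The authors deposited 1 log2 value per probe set, a scale taken from the values, and the signal algorithm and scaling are not given in the sources used here. Control probe sets (64 of 45101) were dropped; 34945 had 1 gene symbol in the platform annotation, 932 several and 9160 none. Values were quantile normalised between arrays, kept if above the 40th percentile of the array in at least 2 arrays (3.60), and the probe set with the highest mean stood for a gene, which left 14432 genes. Group means were modelled jointly over the arrays (limma 3.58.1, R 4.3.3), and passing means a two-sided adjusted p (Benjamini-Hochberg) under 0.05. The procedure was tested on simulated data. The number of arrays limits the precision. The labels do not say whether wild type mice were littermates.

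The 34 genes and all lists were chosen with earlier results of these data known. Named are genes that passed, the 3 with the smallest p in each role, some chosen by name, and up to 4 that passed in each pathway list. Same-numbered arrays did not deviate together (r from -0.20 to 0.05), so the numbers do not pair them. Alternatives were the deposited values, median centring, no filter or the 60th percentile, the mean of all probe sets, 16 added on the linear scale, a replicate block, a trended robust prior, separate fits of the groups compared, another threshold, and each array left out; a crossed block was added after the data were seen.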

Additional observations from a re-analysis of the deposited data

How the results depend on the processing

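With 2 pools a group, calls depend on settings. Pecam1, Robo4, Flt1 and Rspo3 passed in the averaged response in all 8 fits without 1 array, and Flt1 and Rspo3 lost it with the mean of all probe sets. Without 1 array, endothelial genes passing ranged from 0 to 3 in the wild type response, 0 to 3 in the null-labelled and 4 to 10 in the averaged one (10 without array 2 of wild type 24 h), their median wild type response from -0.352 to 0.0431 and their median null-labelled response from 0.05 to 0.31; a lone array is assumed to vary like the other groups. All genes passing ranged from 3 to 1382, 23 to 1745 and 2113 to 3822 in these responses, and 0 to 1 between genotypes at 24 h.

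The replicate block left 0, 0 and 4 endothelial genes in the wild type, null-labelled and averaged responses, and 328 and 899 of all genes in the first 2; the crossed block left 3, 2 and 7. At 24 h either block left 0 of all genes between genotypes. Endothelial genes passing in wild type were 0 with no filter or only the groups compared, 1 with the mean of all probe sets, 5 with damping (16 added) or a trended prior, 6 with the 60th percentile and 7 at adjusted p under 0.1. In null-labelled liver they were 1 with deposited values, no filter or mean probe sets, 0 with only the groups compared and 5 at 0.1. Averaged, they were 2 with mean probe sets, 8 with the 60th percentile, damping or trended prior, and 10 at 0.1. The median null-labelled response was 0.41 with median centring, which moved that of all genes to 0.12.

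All genes passing in wild type were 804 with median centring, 540 with no filter, 2345 with the 60th percentile, 2169 with damping, 2589 with the trended prior, 2 with only the groups compared and 2861 at 0.1. In null-labelled liver they were 1027 with no filter, 3200 with the trended prior, 0 with only the groups compared and 3807 at 0.1. At 0 h between genotypes they were 3 with deposited values, 2 with median centring, 1 with no filter, 8 with the 60th percentile, 7 with damping, 13 with the trended prior and 2 at 0.1. At 24 h they were 3 with median centring, 0 with no filter or only the groups compared, 9 with the 60th percentile, 30 with damping, 109 with the trended prior and 4 at 0.1. The difference between responses gave 10 with the trended prior. No endothelial gene passed between genotypes or in the difference between responses under any setting tried.

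The difference between responses changed sign in Rspo3 (0.0159 with deposited values, 0.13 with median centring) and Flt1 (-0.0046 with damping), and without 1 array it ran from -0.0762 to 0.122 in Flt1, -1.25 to 0.11 in Lyve1, -0.34 to 0.28 in Rspo3 and -0.0216 to 0.639 in Wnt9b. The cause was not tested. Fits of only the groups compared give no averaged response or difference. Of 11 genes with several probe sets above the filter, 4 had the same sign of averaged response in all.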
